A study of Mus musculus with 4 samples.

Results

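The genes described here are those that build fatty acids and triglycerides in mouse aorta. The 33 genes measured are among 18194 genes that had a probe set of their own on the arrays. A list of 34 gene symbols, chosen by function but with earlier results of these data known, defined them. It held regulators of lipid synthesis and enzymes that make, desaturate, elongate and activate fatty acids. It also held enzymes that join them to glycerol and lipases that release them again. Every probe set annotated to exactly 1 gene of that list was taken, 82 in all. Acsl1 had no such probe set in the annotation used and was not analysed here.

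RNA came from the aorta of mice in 4 groups, with 1 Affymetrix array per group. B6 mice carried the genotype C57BL/6 apoE-/-, which removes apolipoprotein E, and were labelled with atherosclerosis. Ath29 congenic mice, also of strain C57BL/6 in the labels, carry a segment that includes Ath29, an atherosclerosis locus of chromosome 9, and were labelled as resistant. The labels name neither the donor strain nor the ends of the segment, and they do not give the apoE genotype of the Ath29 mice. All mice were weaned to chow at 3 weeks of age. From 4 weeks of age each strain either stayed on chow or received a Western diet, which is rich in fat and cholesterol, for 2 weeks. Whether an array held RNA of 1 mouse or of several is not given in the labels. The groups are called B6 chow and B6 Western, and Ath29 chow and Ath29 Western, and values listed without group names follow that order, chow before Western diet in each strain.

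Lipogenesis starts in the cytosol from citrate, which is cleaved to acetyl-CoA, carboxylated to malonyl-CoA and built into palmitate by fatty acid synthase. Elongases and desaturases then lengthen the chain and introduce unsaturated bonds, and acyltransferases attach the products to glycerol 3-phosphate to give triglyceride. The transcription factors SREBP1 and ChREBP drive many of these genes in liver and fat. An artery wall holds smooth muscle, endothelium and fibroblasts, and it is surrounded by perivascular fat, which in the mouse thoracic aorta is largely of the brown type and is rich in these enzymes.

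The arrays had median intensities of 27.9 to 28.8 over 45101 probe sets, so their overall brightness was close. Expression filtering kept 11716 genes with a mean signal above 27.5 intensity units, and all 33 genes passed it. Only Me1 lay under that level on any array. Smooth muscle markers were bright on every array, with Acta2 between 10495 and 11042. The extraction protocol in the labels names liver, whereas the source label names aorta, and 7 of 9 measured hepatocyte markers lay below the filter. The others were Alb, at 33.0 to 64.6, and Cyp2e1, a cytochrome P450 also made by fat cells, at 2490.0 to 4891. With 1 array per group no difference has a replicate check. The number of arrays limits the precision of every value, and counts of genes at least 2-fold different describe these arrays and are no test. Intensities are quoted as deposited, and log2 differences were taken after each array had been set to a common median.

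Most of the genes shared a pattern across the 4 arrays. In 18 of 33 genes (54.5%) the B6 Western array was the highest and the B6 chow array the lowest, against 10.7% of all genes measured. Because the genes were listed with earlier results of these data known, such shares describe these arrays and are no test. The summed intensity of the 33 genes was 38228 and 61239 in B6 chow and B6 Western, and 51639 and 46051 in the Ath29 pair. The Ath29 arrays therefore lay between the B6 arrays on both diets. Ath29 mice were above B6 mice on chow and below them on Western diet in 23 genes (69.7%, against 22.5% of all genes). The reverse held in 5 genes (15.2%, against 32.2%), namely Fads1, Fads2, Fads3, Elovl1 and Acsl4. Srebf1, Scd2, Acsl3 and Lpin2 were below B6 on both diets (12.1%, against 26.7% of all genes), and Me1 was the 1 gene above on both (3.03%, against 18.5%). The sign of the chow difference turned under at least 1 other setting in 7 of the 33 genes, Acly, Acaca, Fads2, Elovl5, Acsl3, Lpin2 and Pnpla2. For Acaca it went from 0.47 to a lowest value of -0.07, and for Pnpla2 from 0.36 to -0.44. The sign on Western diet turned in 3 genes, Lpin2, Dgat1 and Pnpla2. In bulk tissue fewer cells of a type and less RNA per cell cannot be told apart.

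**Figure D1:**
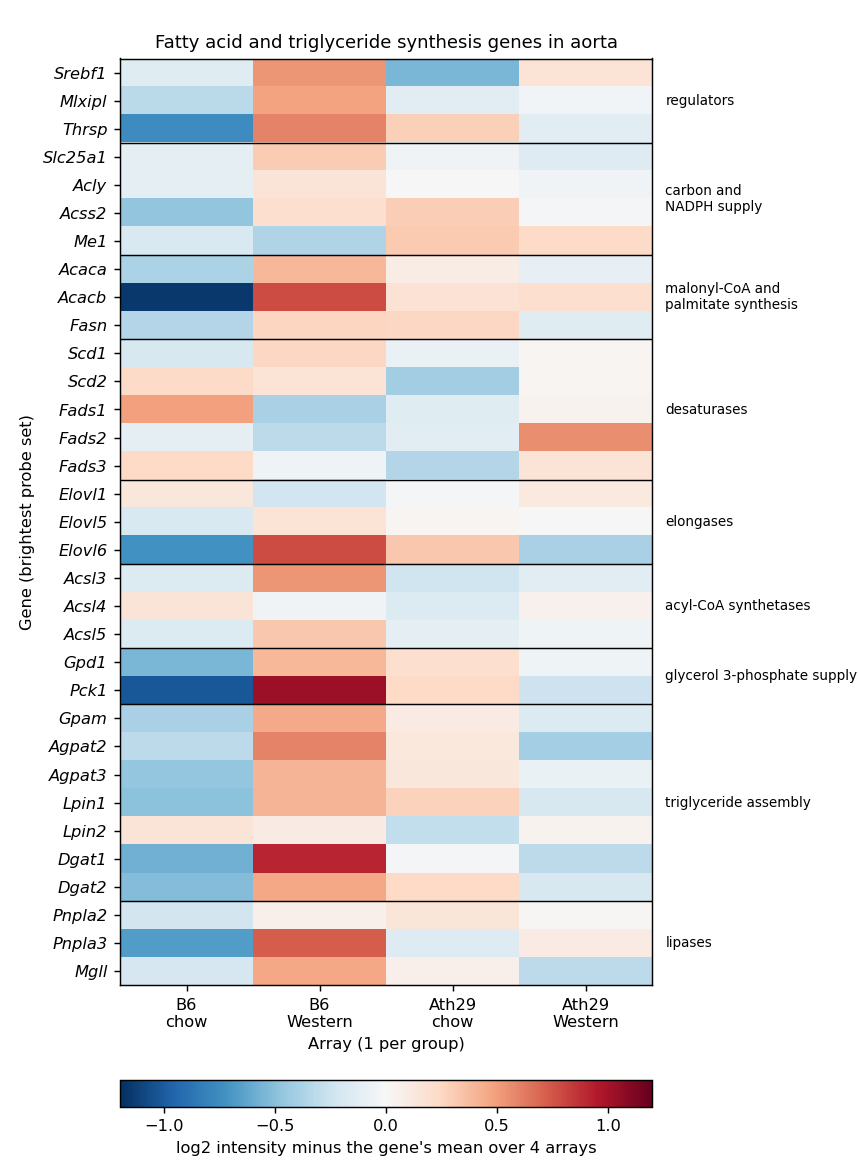
Log2 intensity of each of the 33 genes (rows, brightest probe set, grouped by function) on the 4 arrays (columns), shown as the difference from the gene's own mean over the arrays, with red for higher and blue for lower. In most rows B6 chow is the bluest and B6 Western the reddest column, while the desaturase rows Scd2, Fads1, Fads2 and Fads3 do not show this order.

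In the strain comparison of mice fed chow, Ath29 exceeded B6 at least 2-fold in 4 genes (12.1%, against 2.17% of all genes) and lay at least 2-fold below it in 0 (against 1.94%). Of all genes past 2-fold on chow, 52.8% were higher in Ath29 mice, and 64.6% were when the arrays shared a 75th percentile in place of a median. The median log2 difference of the 33 genes was 0.36, where that of all genes was -0.08. Under Western diet Ath29 lay at least 2-fold below B6 in 4 genes, Elovl6, Pck1, Dgat1 and Agpat2 (12.1%, against 2.03%), and above it in 0 (against 0.845%), with a median of -0.44 against 0.00 for all genes. In the diet comparison of B6 mice, Western diet exceeded chow at least 2-fold in 6 genes, Pck1, Acacb, Elovl6, Dgat1, Pnpla3 and Thrsp (18.2%, against 4.11%), and lay below it in 0 (against 1.17%), with a median of 0.67 against -0.06. In Ath29 mice 0 genes were at least 2-fold higher (against 1.32%) and 0 lower (against 0.854%), and the median was -0.09 against 0.04. These 4 comparisons reuse the same 4 arrays, and each array enters a strain and a diet comparison, so they are not independent of each other. The diet differences of B6 and Ath29 mice use different arrays, and for the strain by diet difference, the diet difference in Ath29 mice minus that in B6 mice, 14 genes were at least 2-fold negative (42.4%, against 6.77% of all genes). They were Thrsp, Acacb, Fasn, Elovl6, Gpd1, Pck1, Gpam, Agpat2, Agpat3, Lpin1, Dgat1, Dgat2, Pnpla3 and Mgll. Fads1 was the 1 gene at least 2-fold positive (3.03%, against 4.95%). These strain by diet counts were not recomputed under other settings. Fasn lay just past the line, at 2.00-fold. For Fads1 the average of its probe sets gave strain differences of -0.33 on chow and 0.18 on Western diet, against -0.63 and 0.44 in the brightest. Western diet was above chow in both strains in 7 genes (21.2%, against 19.3% of all genes), a share near that of all genes: Srebf1, Mlxipl, Acacb, Scd1, Acsl3, Acsl5 and Pnpla3. The names of the genes past 2-fold depended on the probe set read. When all probe sets of a gene were averaged, dim ones included, 0 of the 4 genes named for chow stayed past 2-fold, with 0.46 for Thrsp, 0.66 for Acacb, 0.77 for Elovl6 and 0.40 for Pck1, while Me1 (1.16) and Dgat2 (1.11) passed it. On Western diet Elovl6 and Agpat2 stayed past 2-fold between strains, and Pck1 (-0.42) and Dgat1 (-0.48) did not. Between diets in B6 mice Elovl6 and Pnpla3 stayed, Thrsp (0.97), Acacb (0.97), Pck1 (0.82) and Dgat1 (0.54) did not, and Gpd1 and Dgat2 (1.36) passed it. Agpat2 also fell short of 2-fold under 2 other scalings.

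An additive fit of strain and diet with limma was the only test across genes that the design allowed. It treats the strain by diet difference as error and has 1 residual degree of freedom. The fit drew each gene's variance toward that of all genes, with 5.01 prior degrees of freedom, so its SE and p rest mostly on other genes. It called 0 of the 33 genes for strain and 0 for diet at an adjusted p under 0.05, and 0 of all 11716 genes (0.0%) for either. At an unadjusted p under 0.05 it gave 0 of the 33 genes for strain, where 303 of all genes (2.59%) passed. For diet it gave 2 of the 33 genes, Srebf1 and Pnpla3, where 294 of all genes (2.51%) passed. The additive diet effect of Srebf1 was 0.69 ± 0.24 on the log2 scale (SE, 4 arrays), with an unadjusted p of 0.0274 and an adjusted p of 1 in limma, and Western diet was above chow in both strains. For Pnpla3 the effect was 0.82 ± 0.33, with an unadjusted p of 0.0488 and an adjusted p of 1 in limma, again higher in both strains.

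The 4 genes at least 2-fold higher in Ath29 than in B6 mice on chow in their brightest probe set were Pck1, Elovl6, Acacb and Thrsp, and the DNA just upstream of their start sites is shown because all 4 also shared the array order B6 Western highest and B6 chow lowest. Each line gives the 250 bases before the annotated start in the RefSeq annotation of GRCm38.p6, read along the gene's strand. Capitals mark CCAAT boxes, searched on both strands as CCAAT and its reverse complement ATTGG. The windows are chr3:129532136-129532385 (plus strand) for Elovl6, chr2:173152823-173153072 (plus) for Pck1, chr7:97417551-97417800 (minus) for Thrsp and chr5:114165268-114165517 (plus) for Acacb.
Elovl6: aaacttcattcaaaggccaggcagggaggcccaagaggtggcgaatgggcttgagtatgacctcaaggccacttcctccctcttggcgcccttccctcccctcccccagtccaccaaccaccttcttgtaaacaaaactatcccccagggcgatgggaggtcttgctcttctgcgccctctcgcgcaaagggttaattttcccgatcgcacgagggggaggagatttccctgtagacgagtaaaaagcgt
Pck1: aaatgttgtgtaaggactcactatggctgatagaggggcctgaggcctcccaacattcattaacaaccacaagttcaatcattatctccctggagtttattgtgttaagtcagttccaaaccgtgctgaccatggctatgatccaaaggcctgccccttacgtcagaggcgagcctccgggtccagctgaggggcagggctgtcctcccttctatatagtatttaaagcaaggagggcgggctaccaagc
Thrsp: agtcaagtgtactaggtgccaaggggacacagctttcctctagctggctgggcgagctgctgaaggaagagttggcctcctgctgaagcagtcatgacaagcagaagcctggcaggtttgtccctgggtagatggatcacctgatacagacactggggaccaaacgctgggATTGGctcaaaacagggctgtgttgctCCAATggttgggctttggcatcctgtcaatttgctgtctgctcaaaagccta
Acacb: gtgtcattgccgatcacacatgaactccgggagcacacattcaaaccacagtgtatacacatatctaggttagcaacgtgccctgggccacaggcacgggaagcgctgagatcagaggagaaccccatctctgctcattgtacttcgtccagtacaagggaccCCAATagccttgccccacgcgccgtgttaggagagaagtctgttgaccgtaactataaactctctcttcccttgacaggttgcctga
Thrsp held 2 CCAAT boxes and Acacb 1, whereas Elovl6 and Pck1 held 0. Of the 34 listed genes, 28 had a window in the RefSeq annotation. A CCAAT box was in at least 1 window of 17 of these, against 37.5% of all 27025 genes with a window. The 28 genes had 38 windows and all genes 32851, and a gene with more windows has more chances of a match. The E-box CACGTG, a site type bound by ChREBP and SREBP1, was in the windows of 5 of the 28 genes (Elovl5, Lpin2, Mgll, Mlxipl and Slc25a1), against 6.86% of all genes. The sterol regulatory element, searched as TCACNCCAC on both strands, was in those of Acsl1 and Mlxipl, against 1.22% of all genes. Among genes with the array order B6 Western highest and B6 chow lowest, 8 of 14 with a window held a CCAAT box and 2 of 14 an E-box. Among the other measured genes, 8 of 13 held a CCAAT box and 3 of 13 an E-box. The 14 genes had 16 windows and the 13 genes had 20. A match is a match of letters in these 250 bases and not evidence of binding.

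The regulators behaved differently from each other. Srebf1, which encodes SREBP1, the sterol-regulated activator of lipogenic genes, read 525 and 862 in B6 chow and B6 Western, and 409.9 and 664 in the Ath29 pair. Both Western arrays were above both chow arrays, by 1.60-fold among B6 and by 1.63-fold among Ath29 arrays. On each diet the Ath29 array was below the B6 array, with log2 differences of -0.40 on chow and -0.37 on Western diet, so its strain by diet difference was 0.03. Mlxipl, which encodes the glucose-sensing factor ChREBP, read 85.0, 153, 101 and 107. Its B6 Western array stood above the other 3, and the diet difference was 0.81 in B6 and 0.09 in Ath29 mice. Thrsp, a nuclear protein that follows lipogenic activity in fat and liver, read 1664 and 4367 in B6 chow and B6 Western, and 3534 and 2630.5 in the Ath29 pair. It was 2.55-fold higher on Western diet in B6 mice and 1.33-fold lower in Ath29 mice. Between strains it was 2.06-fold higher in Ath29 mice under chow and 1.65-fold lower under Western diet.

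No gene that supplies acetyl-CoA or reducing power reached 2-fold in any comparison. Acly, which cleaves citrate to acetyl-CoA, read 2539 and 3141 in B6 chow and B6 Western, and 2820.3 and 2722 in the Ath29 pair. Its largest log2 difference in size was 0.27, between diets in B6 mice. Slc25a1, the carrier that exports citrate from mitochondria, had differences between -0.46 and 0.41. Acss2, which makes acetyl-CoA from acetate, was highest in Ath29 chow at 932 and lowest in B6 chow at 530.1, a 1.71-fold difference. Its other probe set above the filter, at 276, 463, 358 and 312, was highest in B6 Western. There the log2 strain difference on chow was 0.34, against 0.77 in the brightest. Me1, the cytosolic malic enzyme that yields NADPH, read 24.6 and 22.3 in B6 chow and B6 Western and 35.6 and 33.3 in Ath29 chow and Ath29 Western. Both B6 values lay under the filter level of 27.5, so its strain differences of 0.49 and 0.59 rest on signals near background. Its other probe set lay below the filter on the mean and gave 1.84 and 0.50. Me1 and Elovl5 are the only listed genes on chromosome 9, and Elovl5 differed between strains by 0.21 on chow and -0.16 on Western diet.

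The enzymes of malonyl-CoA and palmitate synthesis all had the array order B6 Western highest and B6 chow lowest. Fasn, the fatty acid synthase, read 2464 and 3866 in B6 chow and B6 Western, and 3854 and 2916 in the Ath29 pair. B6 Western and Ath29 chow were nearly equal, and Western diet went with a 1.52-fold higher value in B6 and a 1.31-fold lower value in Ath29 mice. Acaca, the cytosolic acetyl-CoA carboxylase, read 791, 1396, 1130.0 and 987 on the arrays in that order. Its strain difference was 0.47 on chow and -0.49 on Western diet. Acacb, the carboxylase of the outer mitochondrial membrane whose malonyl-CoA restrains fatty acid oxidation, read 53.1 and 210.2 in B6 chow and B6 Western, and 138 and 139 in the Ath29 pair. The B6 chow array stood alone at the bottom, 3.84-fold under B6 Western and 2.51-fold under Ath29 chow, while the Ath29 arrays differed by 0.03 on the log2 scale.

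Desaturases were the class that departed most from the shared order. Scd1, the stearoyl-CoA desaturase of fat and liver, read 6349 and 8859 in B6 chow and B6 Western, and 7072 and 7557 in the Ath29 pair. The other Scd1 probe set, at 1497, 3580.1, 2488 and 2726, gave a diet difference of 1.22 in B6 mice where the brighter gave 0.44. The arrays ranked the same in both probe sets, with B6 Western highest and B6 chow lowest. Scd2, the desaturase of brain and many other tissues, read 659 and 645 in B6 chow and B6 Western, and 432 and 583 in the Ath29 pair. It was thus lowest in Ath29 chow, 1.57-fold under B6 chow, while the B6 arrays differed by -0.07 on the log2 scale.

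Of the 3 genes of the Fads cluster, Fads1 and Fads2 desaturate nearer the carboxyl end of the chain and make polyunsaturated fatty acids from dietary precursors. Fads1 read 425 and 237 in B6 chow and B6 Western, and 283 and 319 in the Ath29 pair. It was 1.84-fold lower on Western diet in B6 mice, the opposite side from most lipogenic genes, and 1.14-fold higher in Ath29 mice. Its other probe set above the filter was lower on Western diet in both strains, by log2 differences of -0.26 and -0.30. Fads2 read 45.6, 40.6, 46.0 and 73.7, with Ath29 Western 1.83-fold above B6 Western, and a second probe set gave a log2 difference of 0.57 there against 0.87. Fads3 was also lower on Western diet in B6 mice (-0.29) and higher in Ath29 mice (0.52). The median strain by diet difference was 0.81 over the 5 desaturase genes and -0.72 over all 33 genes.

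**Figure D2:**
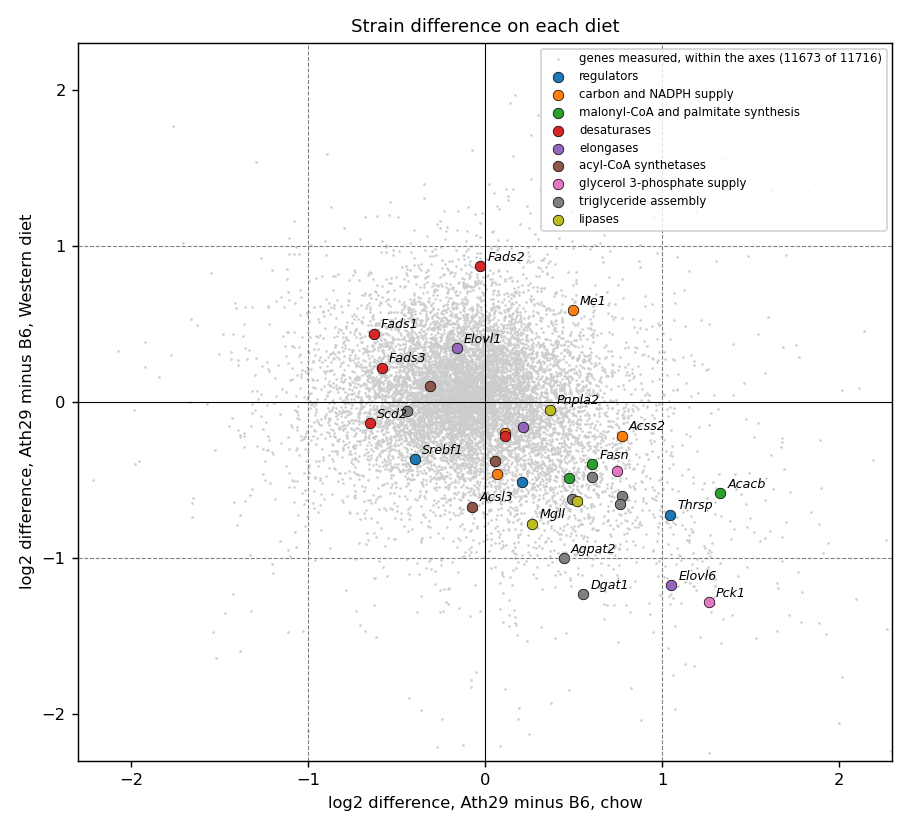
Log2 difference between Ath29 and B6 mice on chow (horizontal axis) and on Western diet (vertical axis) for the 33 genes (coloured by function) and for all other genes within the axes (grey), with dashed lines at 2-fold. Most coloured points lie on the lower right, Elovl6 and Pck1 beyond 2-fold on both axes, while Fads1, Fads2 and Fads3 lie on the upper left.

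The elongases split by member. Elovl6, which extends palmitate to stearate and is a classical lipogenic target, read 568 and 1665 in B6 chow and B6 Western, and 1212 and 733 in the Ath29 pair. It was 2.07-fold higher in Ath29 than in B6 mice under chow and 2.26-fold lower under Western diet. The diet difference was 1.51 in B6 and -0.72 in Ath29 mice, and a second probe set gave 1.83 and -0.68. Elovl5, which acts on polyunsaturated chains, had differences from -0.16 to 0.35. Elovl1, which makes very long saturated chains for sphingolipids, read 1267, 1013, 1167 and 1277, so B6 Western was its lowest array, 1.29-fold under B6 chow.

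Among the acyl-CoA synthetases, which activate free fatty acids, no gene reached 2-fold in any comparison. Acsl5, a synthetase of gut, liver and fat, had differences from -0.38 to 0.49 and the shared array order. Acsl3, found on lipid droplets and endoplasmic reticulum, read 71.8, 119, 70.3 and 74.6, with B6 Western alone above the rest. Acsl4, which prefers arachidonate, had differences from -0.31 to 0.22 in its brightest probe set. A dimmer Acsl4 probe set, at 31.3 in B6 Western and 96.1 in Ath29 Western, gave 1.63 for the strain difference on Western diet.

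Enzymes of glycerol 3-phosphate supply carried some of the largest differences. Pck1, the phosphoenolpyruvate carboxykinase, acts at an early step toward glycerol 3-phosphate in fat. It read 85.5 and 364 in B6 chow and B6 Western, and 211 and 149 in the Ath29 pair. It was 4.14-fold higher on Western diet in B6 mice and 1.41-fold lower in Ath29 mice. Between strains the value was 2.40-fold higher in Ath29 mice under chow and 2.43-fold lower under Western diet. A second Pck1 probe set, with 24.1, 33.1, 23.9 and 33.7 close to the filter level, gave strain differences of -0.06 and 0.03. Gpd1, the glycerol 3-phosphate dehydrogenase abundant in fat, read 3855, 7605, 6639 and 5564. Its brightest probe set gave a diet difference in B6 mice of 0.94, and the next one, at 493 in B6 chow and 1554 in B6 Western, gave 1.62.

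Triglyceride assembly held 7 genes, of which 6 were above B6 on chow and below B6 on Western diet in Ath29 mice. The same held in 69.7% of the 33 genes and in 22.5% of all genes measured. Gpam, the mitochondrial acyltransferase of the initial step, read 2150.1 and 3989 in B6 chow and B6 Western, and 3109.7 and 2575 in the Ath29 pair. Its dimmer probe set, at 66.0 to 75.7, gave a B6 diet difference of -0.10 against 0.85. Agpat2, the adipocyte acyltransferase of the second step, read 612, 1186, 857 and 588, and B6 Western was 2.00-fold above Ath29 Western, just past the 2-fold line. Agpat3, another acyltransferase of that step, had differences between -0.48 and 0.87 in its brightest probe set. Its next one, at 113 to 263 and highest in Ath29 chow, passed 2-fold between strains on chow (1.18) and between diets in B6 mice (1.05). Dimmer Agpat3 probe sets above the filter gave 0.36 and 0.59, and 0.24 and -0.62, for these comparisons. Lpin1, the phosphatidate phosphatase that gives diacylglycerol, read 935, 1803, 1645 and 1179, so that B6 Western and Ath29 chow were its higher arrays, and its second probe set ranked the arrays alike. Lpin2, a relative active in liver and macrophages, had differences between -0.44 and 0.33 and was lowest in Ath29 chow. Dimmer Lpin2 probe sets gave 0.60 and 0.71 for the strain difference on chow, of opposite sign to the -0.44 of the brightest.

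The final step is catalysed by Dgat1 and Dgat2. Dgat1 read 466 and 1348 in B6 chow and B6 Western, and 705 and 571 in the Ath29 pair, so that B6 Western stood well above the other 3 arrays. It was 2.81-fold higher on Western diet in B6 mice and 2.35-fold lower in Ath29 than in B6 mice on Western diet. This probe set can bind more than 1 transcript, per its suffix. The other Dgat1 probe set, near the filter level at 24.3 to 39.0, gave -0.42 for the B6 diet difference and 0.28 for the strain difference on Western diet. Brightest probe sets of Acsl3 and Mgll have the same suffix as that of Dgat1. Those of Acly, Fads2, Elovl1, Elovl5 and Gpd1 have another suffix, for probes that may also bind other sequences. Dgat2, the enzyme that uses newly made fatty acids, read 2096, 4259, 3657 and 2689. Its B6 diet difference of 0.98 lay just under 2-fold in that probe set and was 1.73 in the dimmer one, at 527, 1798, 1497 and 931.

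The lipases and the related Pnpla3 varied by member. Pnpla2, the adipose triglyceride lipase, read 2053 and 2568 in B6 chow and B6 Western, and 2721 and 2465 in the Ath29 pair, and none of its differences exceeded 0.36 in size. A dimmer Pnpla2 probe set, at 58.2 to 76.7, gave the opposite sign in all 4 comparisons. Mgll, which releases the last fatty acid from monoacylglycerol, read 848, 1387, 1051 and 802, with a strain difference of -0.78 on Western diet. Pnpla3, a lipid droplet protein induced by SREBP1 and ChREBP, read 41.1, 112, 60.6 and 71.5. It was 2.64-fold higher on Western diet in B6 mice and 1.19-fold higher in Ath29 mice.

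**Figure D3:**
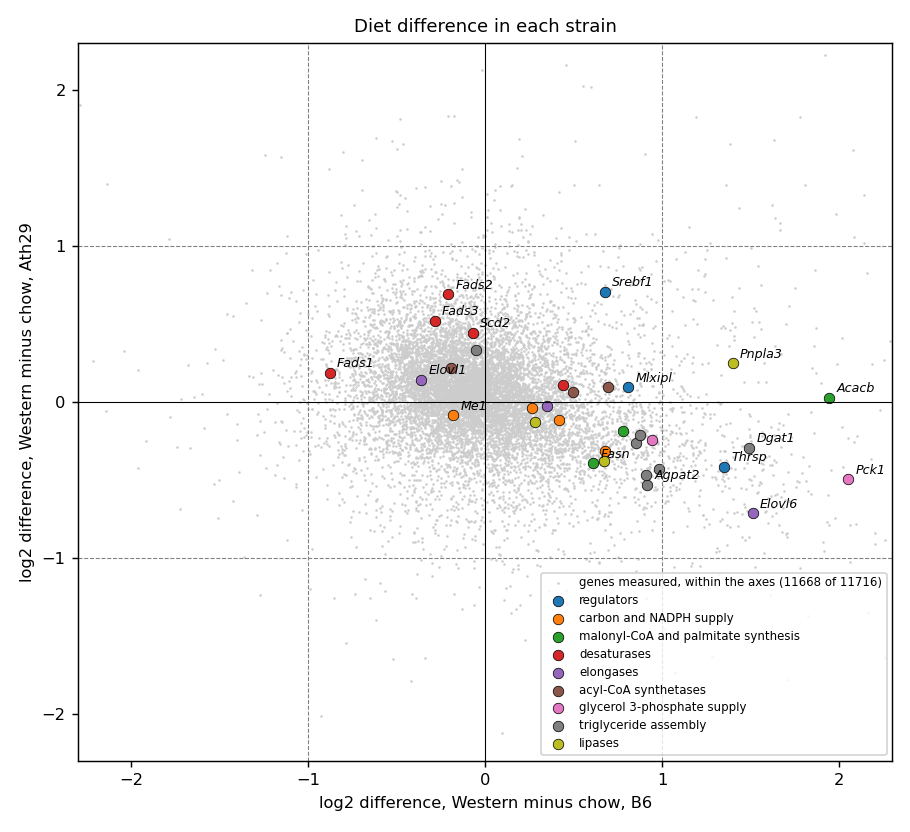
Log2 difference between Western diet and chow in B6 mice (horizontal axis) and in Ath29 mice (vertical axis) for the 33 genes (coloured by function) and for all other genes within the axes (grey), with dashed lines at 2-fold. Pck1, Acacb, Elovl6, Dgat1, Pnpla3 and Thrsp lie beyond 2-fold in B6 mice, no coloured point does so in Ath29 mice, and Srebf1 stands apart with 0.67 and 0.71.

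Probe sets of the same gene allowed a limited check within each array. Of the 33 genes, 21 had at least 2 probe sets above the filter. The brightest and the next of them had the same sign in 17 of 21 genes for the diet difference in B6 mice, in 15 for that in Ath29 mice, in 14 for the strain difference on chow and in 16 for that on Western diet. Gpam, Dgat1, Pnpla2 and Lpin2 were the 4 genes that disagreed in sign for the diet difference in B6 mice. For Scd1, Gpd1 and Dgat2 the next probe set showed the same array order and larger differences in B6 mice. Probe sets of a gene share the labelled RNA, so they are not replicates.

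**Figure D4:**
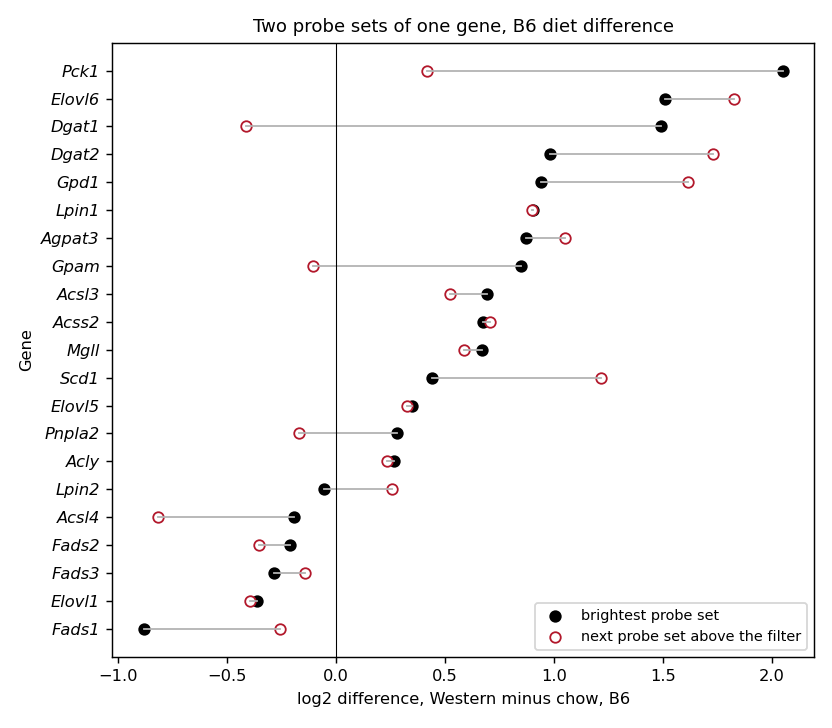
Log2 difference between Western diet and chow in B6 mice for the 21 genes with at least 2 probe sets above the filter, with the brightest probe set as a filled circle and the next as an open circle, joined by a line. The open circle lies to the right for Scd1, Dgat2 and Gpd1 and falls across 0 for Dgat1, Gpam, Pnpla2 and Lpin2.

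Many but not all markers of fat cells moved with most of these genes. Of 11 adipocyte markers above the filter, 8 had B6 Western highest and B6 chow lowest, and their summed intensity was 26581 and 36358 in B6 chow and B6 Western, and 33407 and 29024 in the Ath29 pair. Adipoq, the adipocyte hormone, read 3079.8, 5402, 4747 and 3843, and Cidec, which enlarges lipid droplets, read 262, 719, 606 and 430.2. Plin4 was instead lowest in B6 Western, with 3659, 3591, 4010 and 3680. Of 12 brown adipocyte markers, 6 had B6 Western highest and B6 chow lowest, among them Ucp1, the uncoupling protein, with 3454, 5497, 4508 and 3766. Prdm16 was instead highest in B6 chow and lowest in B6 Western, with 2336, 2003, 2319 and 2180. The brown adipocyte markers summed to 10994, 20725, 16841 and 13330. Lep, the leptin gene, read 1.34 to 15.0 and lay below the filter level on every array. The summed intensity of the 33 genes ranked the arrays in the same order as both marker sums, and the part of fat cells in the result was not tested.

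Other marker groups had other orders. Smooth muscle markers summed to 48396, 44394, 42997 and 45650, and 0 of 12 had B6 Western highest and B6 chow lowest. Fibroblast markers (0 of 8) and endothelial markers (1 of 8) also lacked it. Of 12 macrophage markers, 9 were above the filter. Below it, Aif1 was lower on Western diet in Ath29 mice (-0.53), Fcgr1 was higher in both strains and Cd14 showed no difference. The 9 above it were all higher on Western diet in each strain, against 19.3% of all genes. For Adgre1 in Ath29 mice the difference was only 0.002. The median diet difference of the 9 genes was 0.75 for B6 and 0.45 for Ath29 mice, and they summed to 4114.0, 8324, 4875 and 7839.7. Srebf1 was likewise higher on Western diet in both strains, and the part of macrophages in its values was not tested. Heart muscle markers summed to 8801 in B6 Western against 476 to 783 on the other arrays, and skeletal muscle markers to 553 against 96.3 to 271. Their part in the values of B6 Western was not tested. The 3' to middle signal ratio, a measure of RNA integrity, was 5.10, 5.63, 10.2 and 7.62 for actin and 9.23, 9.54, 8.87 and 10.6 for Gapdh. Set against the 5' end, the 3' signal of actin stood at 24.4, 25.4, 31.5 and 28.5 times and that of Gapdh at 31.3, 29.0, 22.8 and 28.0 times. The actin ratios were highest in Ath29 chow and the Gapdh ratios lowest there, and their part in the result was not tested.

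**Figure D5:**
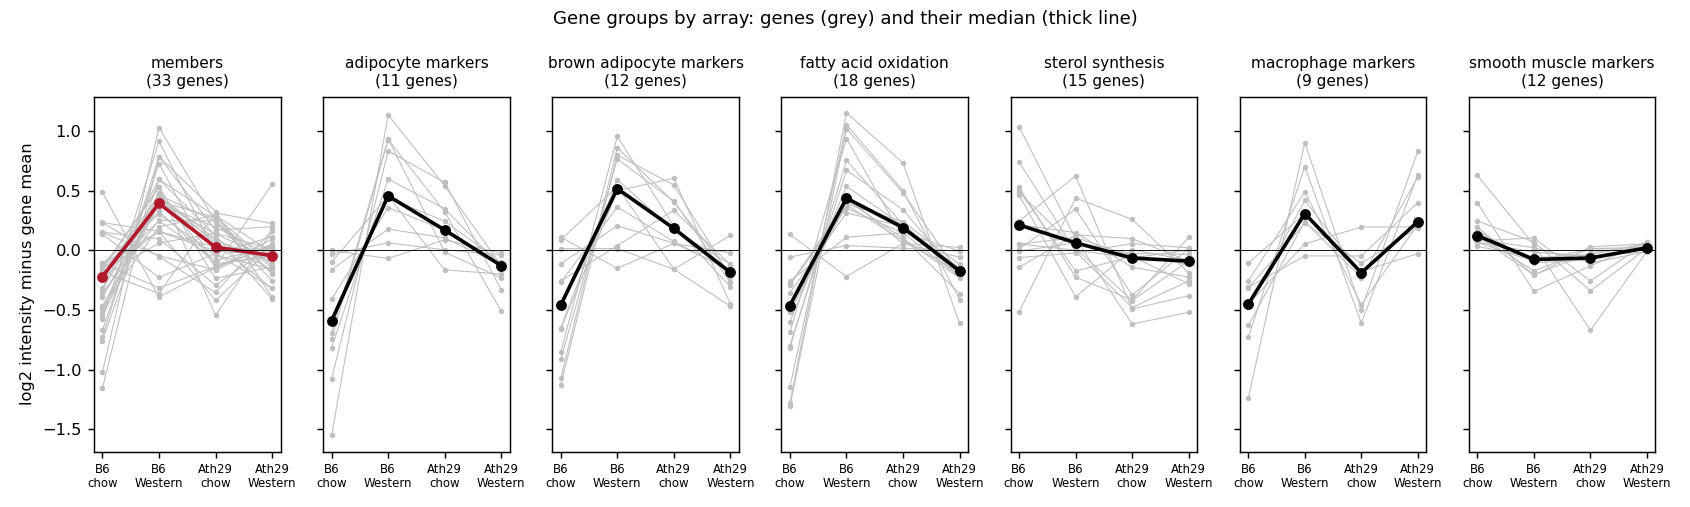
Log2 intensity minus the gene's mean over the 4 arrays (vertical axis) for 7 gene groups (panels), with each gene in grey and the group median as a thick line, red for the fatty acid and triglyceride synthesis genes. These genes, adipocyte markers, brown adipocyte markers and fatty acid oxidation genes are lowest in B6 chow and highest in B6 Western, whereas macrophage markers are high on both Western arrays and sterol synthesis and smooth muscle genes are highest in B6 chow.

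Related pathways were read on the same arrays. Of 42 other genes of fatty acid and triglyceride metabolism, 30 passed the filter, and 14 of them had B6 Western highest and B6 chow lowest. Their median strain difference was 0.21 for chow and -0.36 for Western diet, and their median diet difference was 0.57 for B6 and -0.05 for Ath29 mice. Of the 30 genes, 3 were at least 2-fold higher in Ath29 mice on chow (against 2.17% of all genes) and 0 lower (against 1.94%). Between strains on Western diet, 0 were higher (against 0.845%) and 1 lower (against 2.03%). For Western diet against chow, 7 were higher (against 4.11%) and 0 lower (against 1.17%) in B6 mice. In Ath29 mice 0 were higher on Western diet (against 1.32%) and 2 lower (against 0.854%). Elovl3, the elongase of brown fat, read 82.2, 684, 415 and 144, a diet difference of 3.02 in B6 and -1.51 in Ath29 mice. Acss1, the mitochondrial acetyl-CoA synthetase, gave 1.56 and -0.44, Gpat3, a glycerol 3-phosphate acyltransferase, 1.32 and -0.16, and Lipe, the hormone-sensitive lipase, 1.17 and -0.38. Oxsm and Mcat, of mitochondrial fatty acid synthesis, gave 0.63 and -0.75 and 0.45 and -1.21. Among the 30 genes above the filter these 6 had the largest single differences, which for Oxsm was 1.16 between strains on chow.

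Fatty acid oxidation, the opposing pathway, had the shared order in 16 of 18 genes, with a median strain difference of 0.65 for chow and -0.62 for Western diet and a median diet difference of 0.90 for B6 and -0.36 for Ath29 mice. In both pathways the median was lowest in B6 chow and highest in B6 Western. Sterol synthesis, the pathway driven by the related factor SREBP2, had it in 2 of 15 genes. Its median strain difference was -0.39 for chow and -0.22 for Western diet, and its median diet difference was -0.05 for B6 and -0.01 for Ath29 mice. Whether the lists differ from each other was not tested, because with 1 array per group there is no spread between mice to set the difference against.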

How the data were processed

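Aortic RNA of 4 mouse groups was hybridised to Affymetrix arrays, 1 per group, with 8 ug of total RNA labelled for each, per the labels' protocols. The authors deposited intensity values on a linear scale, from 0.57 to 13421, and how they were summarised and scaled is not given in the sources used here. Of 45101 probe sets, 34958 had 1 gene symbol in the platform annotation, 932 several and 9147 none, beside 64 controls. Symbols were updated by gene identifier where 34754 matched the reference table of GRCm38.p6. The deposited intensities were taken to log2, shifted to a common median and floored at the 25th percentile (9.60). Probe sets with a mean above the median of all (27.5) were kept, and each gene was read from its brightest probe set. The additive fit used limma 3.58.1 in R 4.3.3 with Benjamini-Hochberg adjustment, after tests on simulated data, and other steps used Python 3.11.15.

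Named genes were all members, with array values for those at least 2-fold different and for Srebf1, Mlxipl, Fasn, Scd1, Scd2, Acaca, Acly, Dgat1, Dgat2 and Pnpla2, up to 6 pathway genes above the filter with the largest difference, and up to 4 markers of a list. Array values of further genes were added after the values were seen. The members and lists were chosen with earlier results of these data known. The alternatives were 3 other scalings, 2 other filters, 2 other floors, 2 other ways to read a gene and a 1.5-fold threshold.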

Additional observations from a re-analysis of the deposited data

Results flagged for a closer look

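In Elovl6 and Pck1 the strain difference passed 2-fold on both diets, with opposite signs. The strain difference on Western diet minus that on chow was -2.23 on the log2 scale for Elovl6 and -2.55 for Pck1. Of all genes measured, 67 (0.572%) were at least 2-fold higher in Ath29 mice on chow and at least 2-fold lower on Western diet. The second Elovl6 probe set gave strain differences of 1.25 on chow and -1.26 on Western diet, and the second Pck1 probe set, close to the filter level, gave -0.06 and 0.03. Averaged over all probe sets of the gene, the strain differences were 0.77 and -1.35 for Elovl6 and 0.40 and -0.42 for Pck1, so neither gene passed 2-fold on both diets. With 1 array per group this difference was not tested. The summed adipocyte and brown adipocyte markers were likewise above B6 on chow and below B6 on Western diet in Ath29 mice, and their part in it was not tested.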

How the results depend on the processing

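Of 107 counts recomputed under the alternatives, 97 stayed within 1.5 times the reported count and 10 did not. Part of this agreement was fixed in advance, because all 33 genes passed the filter and dropping it left their values unchanged. Many counts, among them those of the additive fit, were 0 both as reported and under the alternative. At 1.5-fold in place of 2-fold, 10 genes were higher and 3 lower in Ath29 mice on chow, and 2 higher and 12 lower on Western diet. Between diets, 19 were higher and 1 lower on Western diet in B6 mice, and 2 higher and 1 lower in Ath29 mice. The shares of all genes at 1.5-fold were not computed, so these counts cannot be set against them. When a gene's probe sets were averaged, 2 genes were past 2-fold above B6 in Ath29 mice for chow, both other than the 4 reported, and 2 below B6 for Western diet, both among the 4 reported. For the diet comparison of B6 mice 4 genes were past 2-fold, of which 2 were among the 6 reported. When only unique probe sets were read, the differences of Dgat1 turned to 0.28 between strains on Western diet and -0.42 between diets in B6 mice, read from its dim probe set, and 28 genes remained measured. The number of genes with B6 Western highest and B6 chow lowest ran from 16 to 18. The median strain difference ran from 0.20 to 0.44 on chow and from -0.45 to -0.28 on Western diet, and the median diet difference from 0.46 to 0.72 for B6 and from -0.16 to -0.04 for Ath29 mice. Of 132 gene differences, 111 kept their sign under every alternative that measured the gene. The additive fit called 0 of these genes for strain and for diet under each alternative. No paired analysis was possible because each group holds 1 array and the labels give no replicate numbers.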
